A study of Mus musculus with 17 samples.

Results

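Cholesterol is made from acetyl-CoA by a chain of enzymes whose genes share one transcriptional switch. The genes described here are 27 members of that pathway and its control, each found once by its symbol among the 40548 genes of the deposited count table, and all 27 passed the filter on low counts. They fall into 3 arms by role. The mevalonate arm holds 9 genes from ATP-citrate lyase to the prenyl diphosphate synthases, the squalene and sterol arm holds 11 genes from squalene synthase to the last reductase, and 7 genes encode the SREBP2 control machinery and a sterol carrier. The members were chosen by function, with earlier results of these data known.

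All libraries are RNA of sorted macrophages. The donors were Cx3Cr1-GFP/WT mice of strain C57BL/6, so in every group a green fluorescent reporter takes the place of 1 copy of the chemokine receptor gene Cx3cr1. The mice were kept for 16 weeks on standard chow (STD) or on a high fat, high sucrose diet (HFD, Research Diets D12492). Resident Kupffer cells, sorted from liver as F4/80hi and TIM4+, make up the groups STD KC, with 3 libraries, and HFD KC, with 5. Cx3cr1pos HFD (4 libraries) holds liver macrophages that carry the reporter's fluorescence. ATM HFD (5 libraries) holds macrophages of adipose tissue, which were sorted on F4/80 and CD64. The age of the mice is not given in the sources used here, and the labels do not say whether each library came from a separate animal, so the p-values measure the spread between these libraries, which may be technical.

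Libraries carry names that begin with std, hfd or hf, and values below are listed in the order std1, std2 and std3 for STD KC, hfd1, hfd2, hf1, hf2 and hf3 for HFD KC and ATM HFD, and hf1, hf2, hf3 and hfd2 for Cx3cr1pos HFD. Levels are CPM, the usual per-million scaling of counts, here by the TMM-adjusted total of each library's counts in the genes tested, and they are not divided by gene length, so genes are compared between groups and not with each other. Totals ran from 25644835 to 38207943 counts per library, and 3 counts, the floor for a gene with none, equal 0.0752 to 0.115 CPM on this scale. The sort genes followed the labels: Timd4 stood at 1233 to 1565 CPM in STD KC, 402 to 1656 in HFD KC, 26.3 to 42.9 in Cx3cr1pos HFD and 3.99 to 7.87 in ATM HFD. Cx3cr1 stood at 303 to 454 CPM in Cx3cr1pos HFD and at most at 29.1 elsewhere. The HFD KC library lowest in Timd4 is hfd2. Within HFD KC each library named hf is labelled CD68 and each named hfd is labelled frac_neg, so name and label cannot be told apart there. In bulk libraries, fewer cells of a type and less RNA per cell cannot be told apart either.

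Sterol regulatory element-binding protein 2 (SREBP2, gene Srebf2) is made as a membrane protein of the endoplasmic reticulum. When membrane cholesterol is low, the escort protein SCAP carries it to the Golgi, where the site-1 and site-2 proteases (genes Mbtps1 and Mbtps2) release a fragment that enters the nucleus and switches on nearly the whole synthesis pathway. When cholesterol or certain oxysterols are abundant, the INSIG proteins hold SCAP back. In macrophages, which take up cholesterol with engulfed cells and lipoproteins, the liver X receptors (LXR) act in the opposite direction by raising sterol export, and the related factor SREBP1 (gene Srebf1) serves fatty acid synthesis.

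Summed over its genes, the squalene and sterol arm was highest in adipose tissue macrophages, lower in Cx3cr1pos liver macrophages and lowest in both Kupffer cell groups. Its summed level was 263 to 305 CPM in STD KC, 243 to 296 in HFD KC, 311 to 403 in Cx3cr1pos HFD and 405 to 508 in ATM HFD. The 2 Kupffer cell groups overlapped, and each other neighbouring pair of groups lay apart, though the highest Cx3cr1pos HFD library, hf1, came close to the lowest ATM HFD library, hf3. Abundant genes weigh most in this sum, such as Ebp, Dhcr7 and Msmo1, with means of 75.3, 52.6 and 40.1 CPM in HFD KC. Means of Ebp, Dhcr7 and Tm7sf2 did not follow the order, with Ebp at 105 CPM in Cx3cr1pos HFD and 101 in ATM HFD. Summed levels of the mevalonate arm had another order, 451 to 501 CPM in STD KC, 388 to 529 in HFD KC, 321 to 430.3 in Cx3cr1pos HFD and 314 to 405 in ATM HFD. That sum rests on Acly, whose mean alone was 353 ± 56.1 CPM in HFD KC. The control genes summed to 209.8 to 219, 190.1 to 223, 192 to 213 and 196 to 244 CPM in the same order, and all 4 ranges overlapped.

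**Figure D1:**
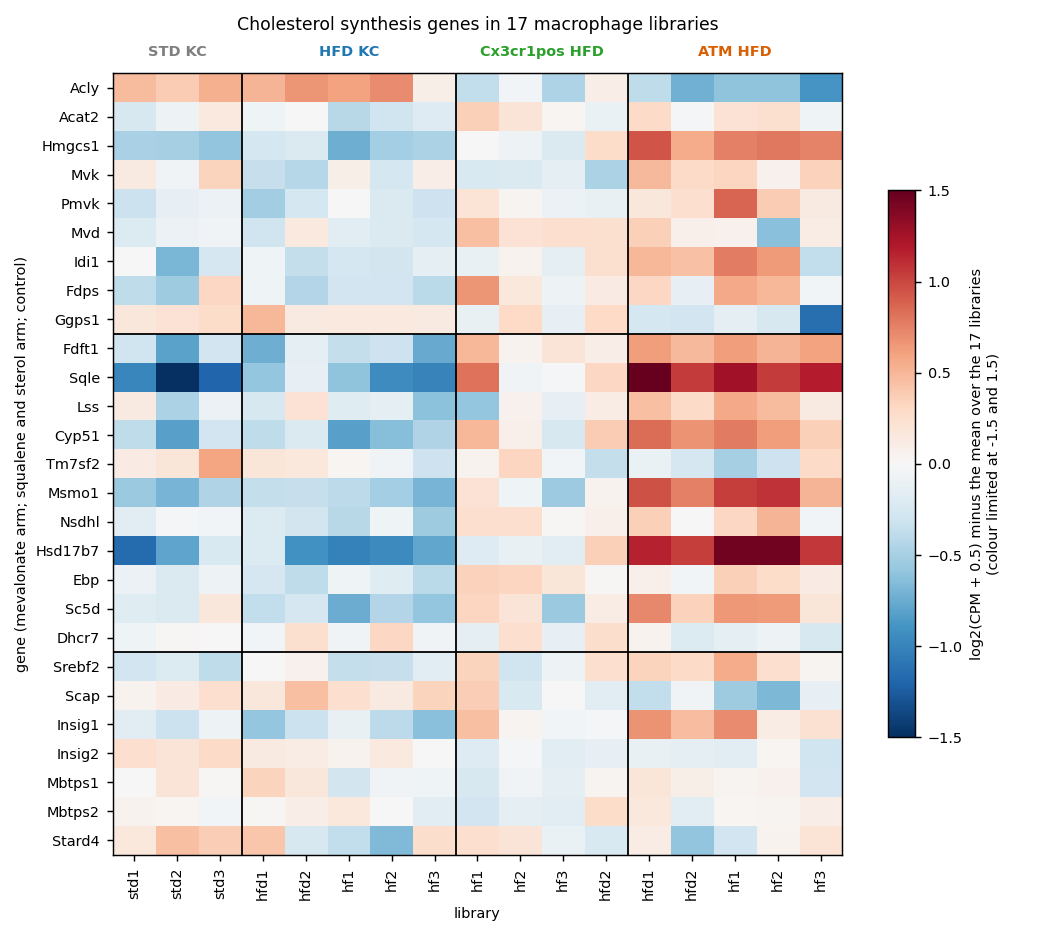
Level of each of the 27 genes (rows, in pathway order, with lines between the 3 arms) in each of the 17 libraries (columns, by group), as log2(CPM + 0.5) minus the gene's mean over the 17 libraries, with the colour limited at -1.5 and 1.5. Most genes of the squalene and sterol arm are red in ATM HFD and blue in both Kupffer cell groups, while Acly shows the opposite and Dhcr7, Mbtps1 and Mbtps2 stay pale throughout.

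Sequences around the annotated starts of 6 members that the results name, picked with their values known, are shown. The reason is that the pathway is known for promoters in which SREBP2 works with the factor NF-Y, which binds the letters CCAAT. RefSeq promoter windows on GRCm38.p6, from 250 bases before to 50 bases after the annotated start, were matched by symbol for 23 of the 27 members. Fdps, Fdft1, Sqle and Stard4 are not among them. The lines below give, 5′ to 3′ along the gene, Hsd17b7 (chr1:169969156-169969455 on the minus strand), Msmo1 (chr8:64733529-64733828 on the minus strand), Cyp51 (chr5:4104648-4104947 on the minus strand), Hmgcs1 (chr13:119690101-119690400 on the plus strand) and Insig1 (chr5:28071162-28071461 on the plus strand), which were called higher in ATM HFD than in HFD KC, and Acly (chr11:100527951-100528250 on the minus strand), which was called lower. In the deposited table these are ENSMUSG00000026675, ENSMUSG00000031604, ENSMUSG00000001467, ENSMUSG00000093930, ENSMUSG00000045294 and ENSMUSG00000020917 in the same order. Capitals mark CCAAT or its reverse complement ATTGG and, in Hmgcs1, the single match to TCACNCCAC, a form of the sterol regulatory element.
Hsd17b7: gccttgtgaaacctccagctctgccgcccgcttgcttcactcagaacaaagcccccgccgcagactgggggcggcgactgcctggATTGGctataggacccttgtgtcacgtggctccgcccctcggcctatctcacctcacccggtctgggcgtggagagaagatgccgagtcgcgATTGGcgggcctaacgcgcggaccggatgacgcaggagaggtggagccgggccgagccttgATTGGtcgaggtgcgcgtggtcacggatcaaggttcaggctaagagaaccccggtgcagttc
Msmo1: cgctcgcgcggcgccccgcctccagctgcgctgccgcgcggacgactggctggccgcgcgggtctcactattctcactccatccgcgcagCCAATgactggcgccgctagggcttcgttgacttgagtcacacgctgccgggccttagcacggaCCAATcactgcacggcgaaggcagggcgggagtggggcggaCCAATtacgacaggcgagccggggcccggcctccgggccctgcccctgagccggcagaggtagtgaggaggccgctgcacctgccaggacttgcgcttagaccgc
Cyp51: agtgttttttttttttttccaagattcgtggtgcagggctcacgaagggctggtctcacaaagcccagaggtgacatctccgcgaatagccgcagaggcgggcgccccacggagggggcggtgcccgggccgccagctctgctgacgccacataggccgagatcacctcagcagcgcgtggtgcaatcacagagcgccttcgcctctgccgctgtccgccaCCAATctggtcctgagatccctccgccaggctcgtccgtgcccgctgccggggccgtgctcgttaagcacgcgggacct
Hmgcs1: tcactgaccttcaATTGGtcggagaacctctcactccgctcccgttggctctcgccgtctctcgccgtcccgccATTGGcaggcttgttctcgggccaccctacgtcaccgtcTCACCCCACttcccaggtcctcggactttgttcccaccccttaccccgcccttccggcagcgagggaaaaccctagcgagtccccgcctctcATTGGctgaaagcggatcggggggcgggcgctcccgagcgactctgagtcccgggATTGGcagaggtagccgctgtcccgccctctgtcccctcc
Insig1: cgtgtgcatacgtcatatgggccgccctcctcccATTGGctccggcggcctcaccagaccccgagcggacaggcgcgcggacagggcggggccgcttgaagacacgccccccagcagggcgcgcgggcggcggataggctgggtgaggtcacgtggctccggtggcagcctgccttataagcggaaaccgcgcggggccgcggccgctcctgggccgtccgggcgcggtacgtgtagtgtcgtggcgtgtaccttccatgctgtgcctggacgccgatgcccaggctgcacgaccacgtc
Acly: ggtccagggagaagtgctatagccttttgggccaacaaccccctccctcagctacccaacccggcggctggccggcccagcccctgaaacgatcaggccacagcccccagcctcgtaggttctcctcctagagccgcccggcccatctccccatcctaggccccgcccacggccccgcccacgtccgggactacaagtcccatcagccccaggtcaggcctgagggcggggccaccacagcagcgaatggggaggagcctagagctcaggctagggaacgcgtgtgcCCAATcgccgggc

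Hmgcs1 holds 4 copies of CCAAT, Hsd17b7 and Msmo1 3 each, and Cyp51, Insig1 and Acly 1 each. Over the 23 matched members, 19 (82.6%) hold CCAAT on either strand in at least 1 listed window, against 42.5% of the 11145 tested genes with a window and 37.4% of all 32851 windows. GGGCGG, the letters bound by SP1, occurs in 20 members (87.0%), against 64.2% of tested genes and 35.7% of windows. CACGTG, the palindromic E-box, occurs in 5 members (21.7%), against 11.2% and 7.15%. TCACNCCAC occurs in Hmgcs1 alone, 4.35% of the members, against 1.33% and 1.24%. Both strands were read, no match overlapped a match to another of these motifs in the windows printed, and a match describes letters and not a bound site. Windows of genes that rose and of Acly, which fell, both held CCAAT, but not at like positions. Counted in bases upstream of the annotated start, the Acly match begins at -37, that is after the start. In Hmgcs1 1 of the 4 copies begins at -10. All matches in Hsd17b7, Msmo1, Cyp51 and Insig1 begin before the start, at 12 to 216.

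Kupffer cells of both diets come first: HFD KC set against STD KC asks what the diet did to TIM4+ Kupffer cells. None of the 27 genes passed an adjusted p of 0.05 in edgeR's quasi-likelihood test, where 3.40% of the 15285 genes tested did. Their median log2 fold change was -0.04, against 0.016 over all genes. Unadjusted p lay under 0.05 for 2 members, Sqle and Sc5d, and DESeq2 likewise passed 0 with adjustment and 2 without. For 26 of the 27 members the 95% interval of the difference lay within a 2-fold change in either direction. All STD KC libraries are labelled frac_neg, and with HFD KC restricted to its frac_neg or to its CD68 libraries the count was 0 as well.

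The exception was Sqle, squalene epoxidase, which adds oxygen to squalene and is a rate-controlling step of the pathway. It stood at 5.86, 3.31 and 4.99 CPM in the STD KC libraries and at 7.84, 10.96, 7.74, 5.99 and 5.76 CPM in the HFD KC libraries. The groups overlapped only at the upper edge of STD KC, where std1 lay above hf3. The log2 difference was 0.70 ± 0.25 SE with a 95% interval of 0.17 to 1.23 (adjusted p = 0.145). Sc5d, the desaturase of a late sterol, stood at 28.6, 27.7 and 36.5 CPM in STD KC and 24.9, 27.1, 19.03, 23.7 and 21.5 CPM in HFD KC. Every HFD KC library was below every STD KC library, with a log2 difference of -0.41 ± 0.18 that did not pass (adjusted p = 0.250).

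Cells of other types were read as the summed CPM of marker lists. From STD KC to HFD KC the 9 markers of liver sinusoidal endothelium went from 6290 to 8283 CPM to 1941 to 6427, and the 19 cell cycle genes from 857 to 909.9 CPM to 479 to 809.8. The 12 hepatocyte markers stood at 171 to 377 CPM in STD KC and 164 to 705 in HFD KC, and the 6 B cell markers at 64.4 to 199 and 339 to 758. None of these markers was at 0 throughout either group, and their part in the result was not tested.

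The second comparison, Cx3cr1pos HFD against HFD KC, sets reporter-positive liver macrophages beside TIM4+ Kupffer cells of the same diet. Of the 27 genes, 9 rose and 1 fell, against 5.85% of all genes tested that rose, 7.48% that fell and 13.3% in either direction. The squalene and sterol arm supplied 7 of the 9 that rose, out of its 11 genes, and the others are Hmgcs1 and Insig1. The median log2 difference was 0.48 over the squalene and sterol arm, 0.33 over the mevalonate arm and -0.09 over the control genes, against 0.002 over all genes.

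Sqle stood at 21.5, 11.6, 11.9 and 14.96 CPM in Cx3cr1pos HFD, all above the HFD KC libraries given above, and rose with a log2 fold change of 0.97 ± 0.22 (adjusted p = 0.00725). Fdft1, squalene synthase and the first enzyme committed to sterols, stood at 6.17, 9.50, 8.16, 8.47 and 6.09 CPM in HFD KC and 15.2, 11.1, 12.2 and 11.4 CPM in Cx3cr1pos HFD. The groups did not overlap, and Fdft1, part of whose transcript sequence also occurs in Ctsb, a cathepsin gene, rose by 0.70 ± 0.16 (adjusted p = 0.00636). Cyp51, the lanosterol demethylase, stood at 27.6, 31.1, 20.2, 23.1 and 26.3 CPM in HFD KC and 51.3, 38.1, 30.4 and 46.95 CPM in Cx3cr1pos HFD. Only Cx3cr1pos HFD hf3 fell within the HFD KC range, and Cyp51 rose by 0.70 ± 0.16 (adjusted p = 0.00824). Ebp, a sterol isomerase that also binds the drug emopamil, stood at 75.1, 68.9, 86.1, 79.1 and 67.5 CPM in HFD KC and 115, 112, 102 and 90.6 in Cx3cr1pos HFD, and rose by 0.48 ± 0.10 (adjusted p = 0.00470) with no overlap.

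A further 5 rises lost their call when certain single libraries were left out. Hsd17b7, which reduces a sterol ketone after demethylation, rose by 0.81 ± 0.23 (adjusted p = 0.0258) from 2.60 to 4.92 CPM to 4.94 to 7.46. Its call ended without HFD KC hfd2, hf1 or hf2 (adjusted p = 0.0621, 0.0645 and 0.0626) and without Cx3cr1pos HFD hfd2 (0.0948). Hmgcs1, the synthase of HMG-CoA at the head of the mevalonate arm, rose by 0.44 ± 0.12 (adjusted p = 0.0196), and its call ended without HFD KC hf1 or hf2 (0.0590 and 0.0563) or without Cx3cr1pos HFD hfd2 (0.0956). Nsdhl, a sterol dehydrogenase, rose by 0.45 ± 0.12 (adjusted p = 0.0236) until HFD KC hf1 or hf3 (0.0605 and 0.0583) or Cx3cr1pos HFD hf1 or hf2 (0.0741 and 0.0753) was left out. Sc5d rose by 0.53 ± 0.17 (adjusted p = 0.0449), a call that held only without HFD KC hfd2 or without Cx3cr1pos HFD hf3 among the 9 libraries left out in turn. Over the other 7, the adjusted p lay between 0.0746 (without HFD KC hf2) and 0.158 (without Cx3cr1pos HFD hf1). Insig1 rose by 0.52 ± 0.15 (adjusted p = 0.0249), and its call ended without HFD KC hfd1 or hf3 (0.0708 and 0.0597) or without Cx3cr1pos HFD hf1 (0.114). Without HFD KC hf1 the total was 6 called members, with 4 of the squalene and sterol arm, where 758 of 15230 genes rose and 1309 fell.

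Msmo1 gained a call without Cx3cr1pos HFD hf3 (adjusted p = 0.0172) and Mvd without HFD KC hfd2 (0.0454). The 4 genes of the squalene and sterol arm that did not pass with all libraries were Msmo1 (0.40 ± 0.14), Lss (0.07 ± 0.18), Tm7sf2 (0.00 ± 0.21) and Dhcr7 (-0.01 ± 0.11). In the mevalonate arm Mvd, the decarboxylase that makes isopentenyl diphosphate, was higher in every Cx3cr1pos HFD library than in every HFD KC library (16.3, 13.7, 14.1 and 13.99 CPM against 9.45, 13.05, 10.5, 10.1 and 9.73), with a log2 difference of 0.46 ± 0.16 that did not pass (adjusted p = 0.0725).

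The fall in this comparison was that of Acly, ATP-citrate lyase, which supplies cytosolic acetyl-CoA to both sterol and fatty acid synthesis. It stood at 349, 386, 372, 401 and 259 CPM in HFD KC and 189.7, 238, 177 and 262 CPM in Cx3cr1pos HFD, with overlap only through HFD KC hf3, and fell by a log2 value of 0.71 ± 0.14 (adjusted p = 0.00298). It was the 1 member of this comparison whose call held under every alternative run. HFD KC and Cx3cr1pos HFD libraries of the same name deviated together, and with the name as a block Fdps (log2 fold change 0.55, adjusted p = 0.0208) and Msmo1 (0.38, 0.0286) passed as well, for 12 called members. Without the block they stood at 0.0763 and 0.0804. Among libraries named hf alone 3 members were called, 2 higher and 1 lower, where 431 of 14571 genes tested were higher and 574 lower. With HFD KC restricted to frac_neg libraries 2 members were called, 1 higher and 1 lower. In that fit 508 of 15996 genes tested were higher and 1016 lower, so the members were called about as often as all genes.

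The cell cycle genes summed to 787 to 1036 CPM in Cx3cr1pos HFD, against 479 to 549 in the 3 HFD KC libraries named hf and 725 and 809.8 in the 2 named hfd. B cell markers summed to 686 to 1880 CPM in Cx3cr1pos HFD and 339 to 758 in HFD KC, Kupffer cell markers to 5942 to 14132 and 32199.8 to 46122, and hepatocyte markers to 102 to 153 and 164 to 705. None of the markers in these 4 lists was at 0 throughout a group. The part of these cells in the differences was not tested.

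The third comparison sets ATM HFD against HFD KC, and it differs in tissue as well as in cell type. Of the 27 genes 17 rose and 4 fell, against 23.8% of all genes tested that rose, 25.2% that fell and 49.0% in either direction, so that calls are common among all genes here. In the squalene and sterol arm 9 of 11 genes rose and none fell, 6 of the 9 mevalonate genes rose and 2 fell, and of the 7 control genes 2 rose and 2 fell. Medians of the log2 difference were 1.003, 0.48 and -0.01 in that order, against 0.001 over all genes. This comparison and the previous one share the HFD KC libraries, so their values are not independent.

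**Figure D2:**
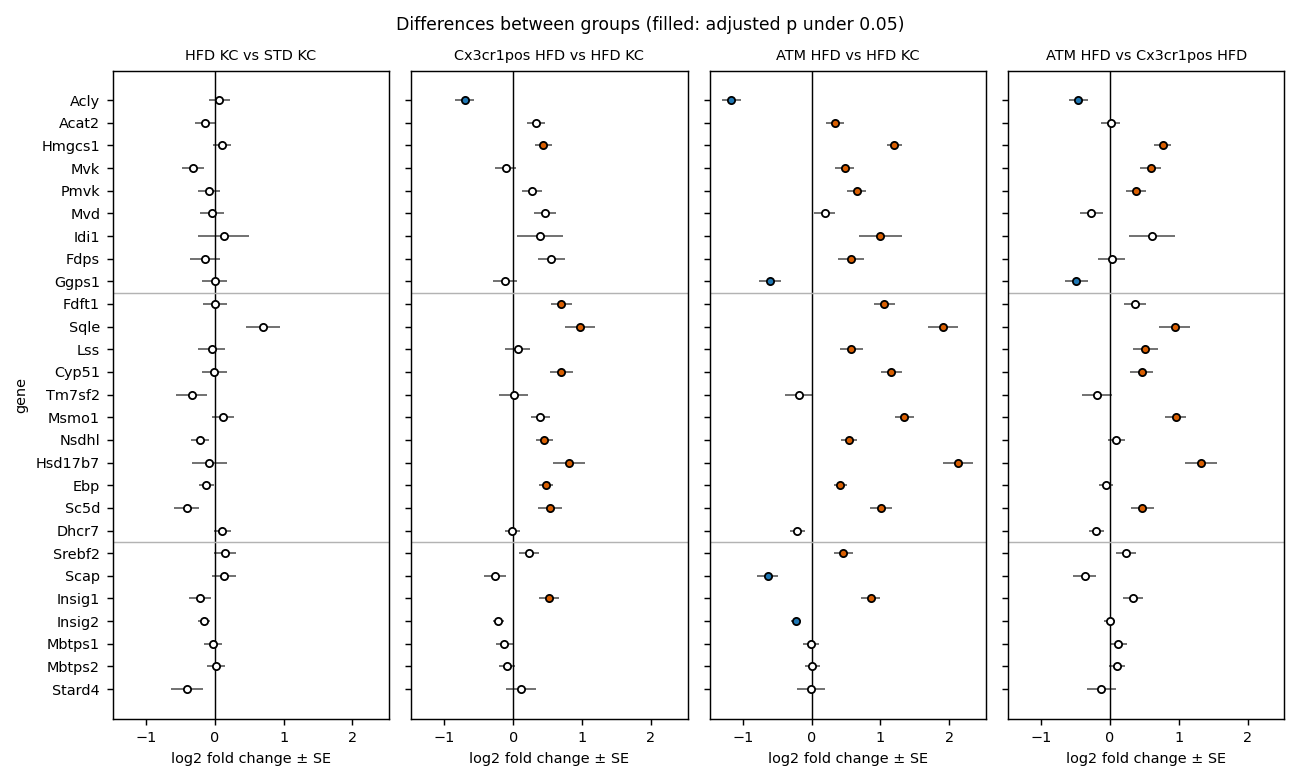
Log2 fold change ± SE (x axes) of the 27 genes (rows, in pathway order, with lines between the 3 arms) in the 4 comparisons, from one fit over 17 libraries. Filled points passed an adjusted p of 0.05, orange where higher in the group named first and blue where lower: 0 in the first panel, 10 in the second, 21 in the third and 11 in the last.

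The largest rise among the members was that of Hsd17b7. It stood at 4.92, 2.82, 2.60, 2.73 and 3.15 CPM in HFD KC and 13.4, 12.3, 16.4, 16.5 and 12.5 CPM in ATM HFD, a log2 fold change of 2.13 ± 0.22 (adjusted p = 5.70e-07). Every ATM library was more than double the highest HFD KC library, hfd1. Sqle followed, at 35.9, 25.3, 29.4, 25.4 and 27.8 CPM in ATM HFD, with a log2 fold change of 1.91 ± 0.21 (adjusted p = 1.35e-06) and no overlap with HFD KC. Msmo1, the oxygenase that removes methyl groups from the sterol nucleus, stood at 42.9, 43.4, 41.8, 38.6 and 33.9 CPM in HFD KC and 108, 93.5, 114, 118 and 78.7 CPM in ATM HFD, and rose by 1.35 ± 0.14 (adjusted p = 4.58e-07). The Msmo1 groups lay apart, with the lowest ATM library, hf3, well above the highest HFD KC library.

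Cyp51 stood at 64.7, 57.8, 62.1, 55.99 and 46.2 CPM in ATM HFD and rose by 1.16 ± 0.16 (adjusted p = 1.00e-05), and Fdft1 at 16.7, 15.04, 16.7, 15.3 and 16.4 CPM and rose by 1.06 ± 0.15 (adjusted p = 1.65e-05). Both were above every HFD KC library in all 5 ATM libraries. Sc5d rose by 1.003 ± 0.16 (adjusted p = 6.35e-05), Nsdhl by 0.54 ± 0.12 and Ebp by 0.42 ± 0.10, each with no overlap. Lss, the cyclase that folds the squalene epoxide into lanosterol, rose by 0.58 ± 0.17 (adjusted p = 0.00949) with overlapping libraries, and its call ended with HFD KC restricted to frac_neg libraries (0.39, adjusted p = 0.173). The 2 members of this arm that did not pass were Tm7sf2, a sterol reductase, with -0.18 ± 0.20 and a 95% interval of -0.61 to 0.24, and Dhcr7, the reductase that makes cholesterol from its direct precursor, with -0.21 ± 0.11 and -0.43 to 0.02. Dhcr7 stood at 47.9, 58.6, 47.7, 61.4 and 47.6 CPM in HFD KC and 51.4, 42.8, 45.1, 46.7 and 41.9 CPM in ATM HFD, and the 2 groups overlapped.

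**Figure D3:**
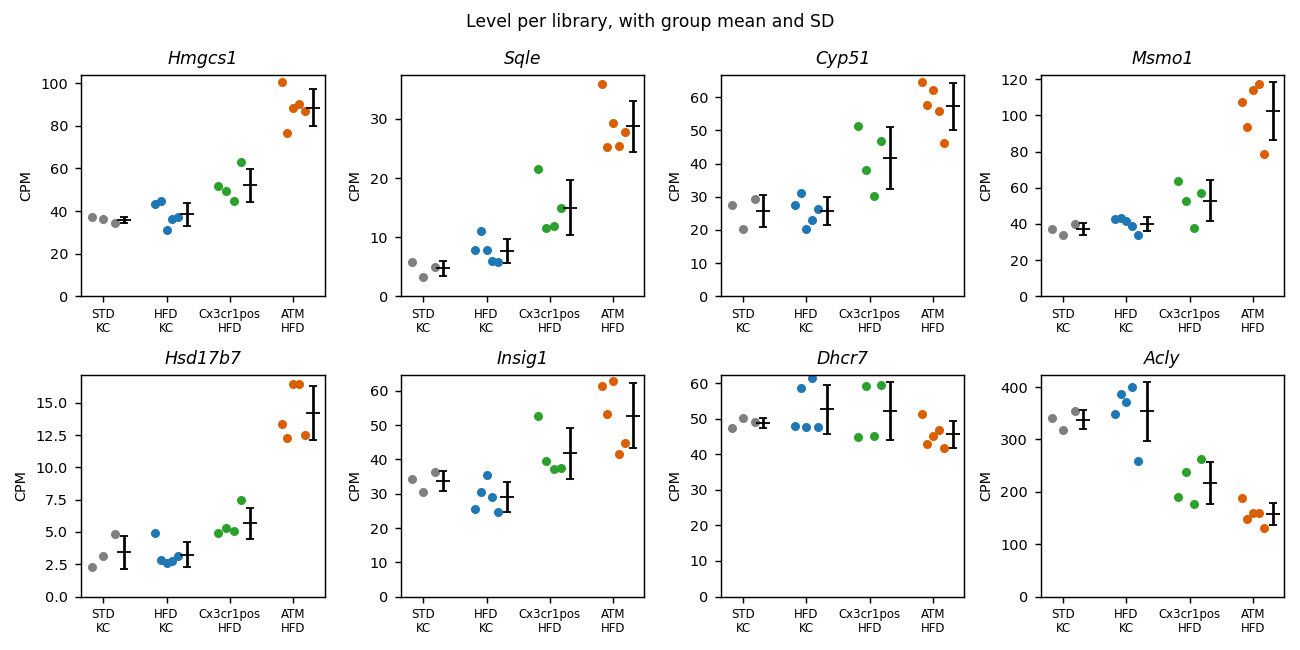
CPM (y axes, from 0) of 8 members in each library (points, by group on the x axes), with the group mean and SD in black. Hmgcs1, Sqle, Msmo1 and Hsd17b7 have all 5 ATM HFD libraries above all libraries of the other 3 groups, Dhcr7 overlaps in all groups and Acly has its lowest mean in ATM HFD.

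In the mevalonate arm, Hmgcs1 stood at 43.1, 44.5, 30.9, 36.4 and 37.1 CPM in HFD KC and 101, 76.7, 88.2, 90.1 and 87.03 CPM in ATM HFD. The libraries were far apart, and Hmgcs1 rose by 1.20 ± 0.11 (adjusted p = 1.61e-07), the smallest adjusted p of the 27 members. Of the kinases that follow in the arm, Pmvk, which phosphorylates phosphomevalonate, rose by 0.65 ± 0.14 (adjusted p = 0.000827) without overlap, and Mvk, which phosphorylates mevalonate, by 0.48 ± 0.14 (adjusted p = 0.00834). The call for Mvk ended with HFD KC restricted to CD68 libraries (adjusted p = 0.0528) and among HFD libraries named hf (0.239). Mvd stood at 10.6 ± 1.45 CPM (SD) in HFD KC and 12.04 ± 2.86 in ATM HFD and did not pass (0.19 ± 0.15, adjusted p = 0.331). Without ATM HFD hf2, the lowest library, it did (adjusted p = 0.0208).

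Fdps, the farnesyl diphosphate synthase, rose by 0.58 ± 0.19 (adjusted p = 0.0173), Idi1, the isopentenyl diphosphate isomerase, by 0.9999 ± 0.32 (adjusted p = 0.0148), and Acat2, the cytosolic thiolase, by 0.34 ± 0.13 (adjusted p = 0.0343). Acat2 lost its call without HFD KC hf1 (0.0585), without HFD KC hf3 (0.0571) and without ATM HFD hfd1 (0.0558). With HFD KC restricted to frac_neg libraries, the label all ATM HFD libraries carry, the calls of all 3 ended (adjusted p = 0.150 for Fdps, 0.121 for Idi1 and 0.424 for Acat2). Among HFD libraries named hf those of Idi1 (0.126) and Acat2 (0.0532) ended, and with no filter that of Acat2 (0.0803). Reads of several members are partly uncertain in origin, those of 5 the most. Of the 50-base stretches in their transcripts, 39.1% for Acat2, 26.2% for Fdps and 25.3% for Idi1 also occur in transcripts of other genes in GENCODE M21, as do 26.5% for Fdft1 and 28.9% for Mbtps2. Lower shares were 11.6% for Hmgcs1, 9.96% for Scap, 9.87% for Tm7sf2 and 9.58% for Ggps1. How reads that match several genes were counted is not given in the sources used here. Idi1 also rests on few reads, at 0.564 to 0.805 CPM in HFD KC and 0.552 to 1.83 in ATM HFD.

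Both falls of the mevalonate arm stand at its ends. Acly stood at 187, 148, 160.0, 160.3 and 132 CPM in ATM HFD, below every HFD KC library, and fell by a log2 value of 1.17 ± 0.13 (adjusted p = 1.73e-06). Ggps1, the geranylgeranyl diphosphate synthase, feeds the branch that attaches lipid anchors to proteins and not the sterol branch. It stood at 31.6, 24.4, 24.7, 24.6 and 24.5 CPM in HFD KC and 18.4, 18.1, 20.2, 18.7 and 9.86 CPM in ATM HFD and fell by 0.61 ± 0.16 (adjusted p = 0.00483), with no overlap and ATM HFD hf3 the lowest. Among HFD libraries named hf the call for Ggps1 ended (adjusted p = 0.0920).

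Among the control genes, Insig1, which is itself a target of SREBP2, stood at 25.5, 30.5, 35.6, 28.99 and 24.7 CPM in HFD KC and 61.4, 53.2, 62.8, 41.5 and 44.9 CPM in ATM HFD and rose by 0.86 ± 0.14 (adjusted p = 7.36e-05). Insig2, its partner with the same retention role, stood at 43.01, 42.3, 40.5, 43.2 and 39.3 CPM in HFD KC and 36.2, 35.4, 34.9, 40.04 and 31.7 CPM in ATM HFD. Its fall of 0.23 ± 0.07 (adjusted p = 0.0183) was small and was lost without any of HFD KC hfd1, hfd2 or hf2 or ATM HFD hfd1, hfd2 or hf1 (adjusted p = 0.0563 to 0.0842). The ratio of Insig1 to Insig2 CPM within a library, which no scaling factor touches, was 0.685 to 0.760 in STD KC, 0.593 to 0.878 in HFD KC, 1.04 to 1.54 in Cx3cr1pos HFD and 1.04 to 1.80 in ATM HFD. All HFD KC libraries lay below all Cx3cr1pos HFD and ATM HFD libraries, and the last pair of groups overlapped.

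Srebf2 stood at 18.4, 19.1, 14.2, 14.3 and 16.2 CPM in HFD KC and 23.2, 22.5, 27.2, 21.8 and 18.8 CPM in ATM HFD. It rose by 0.46 ± 0.14 (adjusted p = 0.00951), with HFD KC hfd2 above ATM HFD hf3. With HFD KC restricted to frac_neg libraries the log2 difference of Srebf2 was 0.27 and did not pass (adjusted p = 0.249). Scap stood at 9.66, 11.9, 10.3, 9.44 and 10.9 CPM in HFD KC and 6.49, 8.24, 5.79, 5.16 and 7.80 CPM in ATM HFD, and fell by 0.64 ± 0.15 (adjusted p = 0.00214) with no overlap. Mbtps1 (-0.01 ± 0.11, 95% interval -0.25 to 0.23), Mbtps2 (0.01 ± 0.11, -0.23 to 0.25) and Stard4, a carrier that moves sterol between membranes (-0.01 ± 0.20, -0.44 to 0.42), passed in none of the 4 comparisons with all libraries.

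Summed liver cell markers were lower in the adipose libraries and summed stromal markers higher. Hepatocyte markers summed to 3.08 to 4.25 CPM in ATM HFD against 164 to 705 in HFD KC, sinusoidal endothelial markers to 106 to 160.2 against 1941 to 6427, and the 6 stellate or fibroblast markers to 90.7 to 242 against 26.6 to 54.1. Of these 6, Dcn, Col1a1 and Col3a1 were higher in every ATM HFD library than in every HFD KC library, and Lrat, Reln and Des lower. The 6 adipocyte markers summed to 5.62 to 17.6 CPM in ATM HFD and 0.239 to 1.99 in HFD KC, where Plin1, Lep and Retn were at 0 in every library. Of 5 neutrophil markers the sum was 68.1 CPM in ATM HFD hf1 and at most 6.12 in the other ATM libraries, and without hf1 20 members were called. Cell cycle genes summed to 848 to 1110.1 CPM in ATM HFD. Mitochondrial transcripts took 0.598 to 1.36% of counts in ATM HFD and 0.374 to 0.640% in HFD KC. The part of these cells and of this share in the differences was not tested.

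ATM HFD against Cx3cr1pos HFD compares the adipose macrophages with the reporter-positive liver macrophages of the same diet. Of the 27 genes, 9 rose and 2 fell, against 18.9% of all genes that rose, 20.8% that fell and 39.7% in either direction. Taken in either direction, the 11 calls were about as common as calls among all genes. The squalene and sterol arm held 6 of the 9 rises, and its median log2 difference was 0.46. The mevalonate arm held the other 3, and its median was 0.02. The median of all genes was -0.029, and none of the 7 control genes passed with all libraries. Insig1 (0.34 ± 0.15, adjusted p = 0.0815) passed with RLE scaling (0.0470), total counts (0.0272) and DESeq2 (0.0364), and without Cx3cr1pos HFD hf1 (0.0232) or ATM HFD hf2 (0.0181). Mbtps2 (0.10 ± 0.12) passed without Cx3cr1pos HFD hfd2 (0.0441). Fdft1 (0.36 ± 0.16, adjusted p = 0.0777) passed with RLE scaling (0.0457), total counts (0.0311), DESeq2 (0.0252), a term for the name prefix (0.0425) and only the groups compared (0.0306), and without Cx3cr1pos HFD hf1 (0.0363), and Idi1 (0.61 ± 0.34) passed without ATM HFD hf3 (0.0330).

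The rises that held without any single library were those of Hsd17b7 (1.32 ± 0.23, adjusted p = 0.000257), Msmo1 (0.95 ± 0.15, 7.27e-05), Sqle (0.94 ± 0.22, 0.00297), Hmgcs1 (0.76 ± 0.12, 8.76e-05) and Mvk (0.59 ± 0.15, 0.00452). In each of these 5 genes every ATM library was above every Cx3cr1pos HFD library. Msmo1, for example, stood at 63.9, 52.6, 37.5 and 57.2 CPM in Cx3cr1pos HFD, and Hmgcs1 at 51.8, 49.2, 44.5 and 62.9 CPM. Ebp and Nsdhl, which were higher in Cx3cr1pos HFD than in HFD KC, stood at log2 differences of -0.06 ± 0.10 and 0.09 ± 0.13 here and did not pass.

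The other 6 calls ended when some library was left out. Lss (0.51 ± 0.18, adjusted p = 0.0339) ended without Cx3cr1pos HFD hf1 or hf3 or ATM HFD hf1 (up to 0.119). Cyp51 (0.46 ± 0.16, 0.0340) ended without Cx3cr1pos HFD hf2 or hf3 (0.0633 and 0.125). Sc5d (0.47 ± 0.17, 0.0366) ended without Cx3cr1pos HFD hf3 or ATM HFD hfd1 (0.124 and 0.0544). Pmvk (0.38 ± 0.15, 0.0486) ended without Cx3cr1pos HFD hf2, hf3 or hfd2 or ATM HFD hf1 (up to 0.120). The fall of Acly (-0.46 ± 0.14, 0.0147) ended without Cx3cr1pos HFD hf2 or hfd2 or ATM HFD hfd2 (up to 0.105). That of Ggps1 (-0.49 ± 0.17, 0.0303) ended without Cx3cr1pos HFD hf2 or hfd2 or ATM HFD hfd1, hfd2 or hf2 (up to 0.134). The total was 7 without Cx3cr1pos HFD hf2 and 7 without Cx3cr1pos HFD hf3, and in the latter case 3 genes of the squalene and sterol arm were called. Of all genes, 2764 of 15227 rose and 2587 fell without hf2, and 2471 of 15274 rose and 2775 fell without hf3. In both fits calls were less common among the members than among all genes.

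Marker lists of other cell types were read in this comparison too. Kupffer cell markers summed to 5942 to 14132 CPM in Cx3cr1pos HFD and 142 to 173 in ATM HFD, sinusoidal endothelial markers to 1306 to 2222 and 106 to 160.2, hepatocyte markers to 102 to 153 and 3.08 to 4.25, and B cell markers to 686 to 1879.9 and 355 to 1278. The sums of the first 3 lists lay apart, and those of the B cell list and of the cell cycle genes overlapped. Mitochondrial transcripts took 0.295 to 0.453% of counts in Cx3cr1pos HFD, below every ATM HFD library. The part of these values in the differences was not tested.

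To place the module among related genes, 4 neighbouring lists were read from the same fit. The list of SREBP1 lipogenic genes, 14 genes of fatty acid synthesis and desaturation with Srebf1 itself, held 8 genes that fell and 3 that rose in ATM HFD against HFD KC, where 25.2% of all genes fell and 23.8% rose. Its median log2 difference was -0.61, against 0.001 over all genes. The stearoyl-CoA desaturases Scd1 and Scd2 fell by 4.16 ± 0.37 and 3.12 ± 0.20, from 244 ± 55.3 to 13.6 ± 5.80 CPM and from 135 ± 25.3 to 15.5 ± 4.19 CPM. Acacb, an acetyl-CoA carboxylase, fell by 2.23 ± 0.60 (adjusted p = 0.00544) but rests on few reads. Its libraries stood at 0.0628 to 1.82 CPM in HFD KC and 0.114 to 0.326 in ATM HFD. The groups overlapped, and the lowest HFD KC library was below the floor of 3 counts. Against Cx3cr1pos HFD, 7 of the 14 fell and 3 rose in ATM HFD, where 20.8% of all genes fell and 18.9% rose, with Scd2 at -2.95 ± 0.20, Scd1 at -2.68 ± 0.36 and the desaturase Fads2 at 2.53 ± 0.49. In Cx3cr1pos HFD against HFD KC 3 fell and 2 rose (7.48% and 5.85% of all genes), among them Scd1 (-1.48 ± 0.36, adjusted p = 0.0106) and the elongase Elovl6 (1.38 ± 0.23, 0.000713).

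The summed level of the lipogenic list was 495 to 605 CPM in STD KC, 530.4 to 769 in HFD KC, 389 to 593 in Cx3cr1pos HFD and 233 to 292 in ATM HFD. Divided within each library, the squalene and sterol arm stood to this list at 0.504 to 0.555 in STD KC, 0.361 to 0.490 in HFD KC, 0.625 to 0.928 in Cx3cr1pos HFD and 1.47 to 2.18 in ATM HFD. The 4 ranges did not overlap, and the ratio shows unequal change of 2 lists, in which Scd1 and Scd2 carry much of the denominator in the liver groups.

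**Figure D4:**
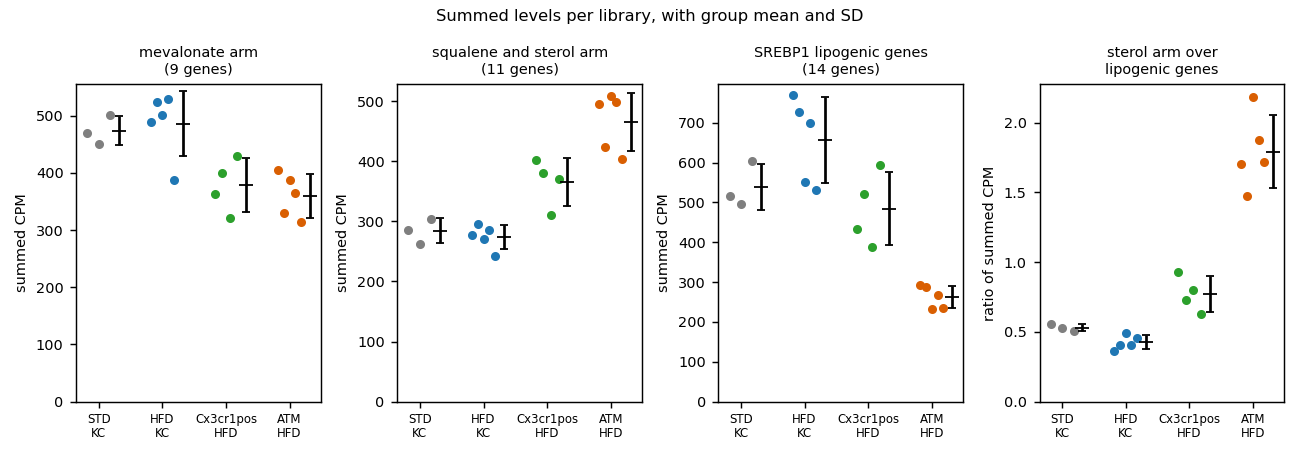
Summed CPM (y axes of the first 3 panels, from 0) of the mevalonate arm, the squalene and sterol arm and the SREBP1 lipogenic genes, and the within-library ratio of the last pair (last panel), per library (points, by group) with the group mean and SD in black. The squalene and sterol arm rises from the Kupffer cell groups through Cx3cr1pos HFD to ATM HFD, the lipogenic genes are lowest in ATM HFD, and the ratio runs from 0.361 to 2.18.

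LXR targets and genes of sterol movement, 12 in number, included 6 that fell and none that rose in ATM HFD against HFD KC, where 25.2% of all genes fell, and likewise against Cx3cr1pos HFD, where 20.8% fell. Median log2 differences of the list were -0.27 and -0.31. Nr1h3, which encodes LXR alpha, went from 1105 ± 149 CPM in HFD KC to 105 ± 13.3 in ATM HFD (-3.40 ± 0.14, adjusted p = 1.10e-11). Mylip, a ubiquitin ligase, fell by 2.01 ± 0.18 and Scarb1, the receptor for high-density lipoprotein, by 1.88 ± 0.12. In Cx3cr1pos HFD against HFD KC 1 of the 12 rose and none fell, where 5.85% of all genes rose and 7.48% fell.

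Of 12 genes of sterol-regulated protein degradation and sterol binding, 2 rose and 3 fell in ATM HFD against HFD KC, where 49.0% of all genes were called, and 1 rose without ATM HFD hfd2. Rnf145, a ubiquitin ligase of the endoplasmic reticulum, fell by 1.62 ± 0.13 (adjusted p = 3.44e-08), and Ube2g2, a ubiquitin-conjugating enzyme, by 0.55 ± 0.09, while Pgrmc1, a heme-binding membrane protein that partners with CYP51, rose by 1.11 ± 0.14 (adjusted p = 4.28e-06). Against Cx3cr1pos HFD the counts were 2 and 4, where 39.7% of all genes were called, led by the same Rnf145 (-1.25 ± 0.14) and Pgrmc1 (1.06 ± 0.15). The rises there were 1 without Cx3cr1pos HFD hf1 or hf3 or ATM HFD hf1 or hf3, and the falls 2 without Cx3cr1pos HFD hf3 or ATM HFD hfd1 or hf2. The isoprenoid branch, 13 genes that use farnesyl and geranylgeranyl groups, held 1 rise and 1 fall against HFD KC, and 2 or 3 rises without HFD KC hf1 or hf3 or ATM HFD hfd1, hfd2 or hf2. With all libraries these were Fnta, a subunit of farnesyltransferase (0.54 ± 0.18), and Rabggta, a subunit of the transferase for Rab proteins (-0.73 ± 0.12). Against Cx3cr1pos HFD 2 fell, Coq2, a prenyltransferase of ubiquinone synthesis (-0.99 ± 0.35, adjusted p = 0.0307), and Rabggta (-0.36 ± 0.13, 0.0357), a count that ran from 0 to 2 with 1 library left out. No gene of either list passed in Cx3cr1pos HFD against HFD KC with all libraries, where 13.3% of all genes were called. There, 1 of the degradation list rose without HFD KC hf1, and 1 of the isoprenoid branch fell without HFD KC hf3 or Cx3cr1pos HFD hf2.

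Under the diet alone, HFD KC against STD KC, 3.40% of all genes were called, and no gene of the isoprenoid or degradation lists passed. In the LXR list Abca1, the sterol exporter, rose by 0.83 ± 0.13 (adjusted p = 0.00209). Of the lipogenic list Scd2 rose by 0.92 ± 0.21 (adjusted p = 0.0245), and Fads1, a desaturase, and Mid1ip1, a partner of acetyl-CoA carboxylase, fell by 0.66 ± 0.16 (0.0305) and 0.47 ± 0.12 (0.0429). These 3 lipogenic calls each ended without std1, without std2 and without std3, where the adjusted p was 0.0798, 0.192 and 0.0795 for Scd2. For Fads1 it was 0.0846, 0.116 and 0.139, and for Mid1ip1 0.0813, 0.170 and 0.181. Without single HFD KC libraries the call for Scd2 ended without hfd1 or hfd2 (0.0501 and 0.0506), that for Fads1 without hfd1, hf1 or hf3 (0.0539 to 0.0631) and that for Mid1ip1 without hfd2, hf1, hf2 or hf3 (0.0507 to 0.0726). The call for Abca1 held without each of the 8 libraries of the comparison.

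Within groups, libraries were also read by how many squalene and sterol genes lay on one side of the group mean. In the libraries named hf3, 10 of the 11 genes were below their group mean in HFD KC, 10 of 11 in Cx3cr1pos HFD and 9 of 11 in ATM HFD. In ATM HFD hfd2, 10 of 11 were below the mean as well, and in STD KC std3 all 11 were above it. The median deviation of the arm was -0.23 in HFD KC hf3, -0.13 in Cx3cr1pos HFD hf3 and -0.16 in ATM HFD hf3 on the scale of log2(CPM + 0.5). Genes of one library share its depth and scaling, so these counts are a description.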

How the data were processed

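The deposited table held whole-number read counts per gene for 17 libraries. Per the submitters' processing notes and the labels' protocols, cDNA came from a SMARTer kit and was sequenced on a HiSeq as single 50-base reads, which bcl2fastq demultiplexed, STAR 2.0.4b aligned and Subread featureCounts 1.4.5 counted. The genome build, the annotation, the strand setting and any removal of duplicates are not given in the sources used here, so floors cover counting error only. The 95% intervals of log2 differences come from the fitted model and include the spread between libraries. The table's 40824 entries held 276 repeats of an identifier, which were removed.

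Genes were filtered with filterByExpr, which left 15285, and counts were scaled with TMM. One edgeR 4.0.16 quasi-likelihood model (R 4.3.3) with 1 coefficient per group was fitted to all 17 libraries, the two-sided tests were adjusted by Benjamini-Hochberg over all genes, and the threshold was 0.05. The common biological coefficient of variation was 0.297. Fold changes are given as log2 with SE, group means with SD. The test was tried on simulated counts first. Alternatives were RLE factors, total counts, no filter, DESeq2 1.42.0, only the groups compared, a replicate block, a term for the name prefix, fits on libraries of one name prefix or one sort label, and fits without each library in turn.

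In the alternative with a replicate block, and not in the reported test, libraries of the same name were treated as paired. A check came first. Across genes, deviations of same-named HFD KC and Cx3cr1pos HFD libraries from the group means correlated at 0.174 (hf1), 0.166 (hf2), 0.233 (hf3) and 0.301 (hfd2). The pairing rests on the data, since the labels give the shared name only.

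The members and all lists were chosen with earlier results of these data known. Named are all 27 members and, from the other lists, genes among the 3 largest called differences per comparison. Marker lists are given as sums, with Timd4 and Cx3cr1 as sort genes. Promoter windows are RefSeq's, on GRCm38.p6, and shared transcript stretches are from GENCODE M21. Lists of T and NK cell, neutrophil and dendritic cell markers summed to at most 62.7, 68.1 and 84.4 CPM in any library, and macrophage markers to at least 13984 CPM in every library.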

Additional observations from a re-analysis of the deposited data

Results flagged for a closer look

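In each group of 4 or 5 libraries, the level of every member and the summed level of each arm were read for a single library far from the others by Dixon's criterion. Of 90 such sets 9 held one, where chance alone gives about 1 in 20. The sets share libraries and scaling, and the sums hold the members again. They are thus not independent, and these rates cannot show an excess.

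The phosphomevalonate kinase gene Pmvk stood at 55.3 CPM in ATM HFD hf1, against 33.0 to 39.4 in the other 4 libraries. Mvd, the mevalonate diphosphate decarboxylase gene, stood at 13.0 CPM in HFD KC hfd2, with the others at 9.45 to 10.5, and at 16.3 CPM in Cx3cr1pos HFD hf1, with the others at 13.7 to 14.1. Ggps1 stood at 31.6 CPM in HFD KC hfd1 beside 24.4 to 24.7 in the rest, and at 9.86 CPM in ATM HFD hf3 beside 18.1 to 20.2. Hsd17b7 was highest at 4.92 CPM in HFD KC hfd1, above 2.60 to 3.15, and at 7.46 CPM in Cx3cr1pos HFD hfd2, above 4.94 to 5.27. For Insig1, Cx3cr1pos HFD hf1 stood at 52.7 CPM and the other 3 libraries at 37.2 to 39.5. The mevalonate arm summed to 388 CPM in HFD KC hf3 and to 489 to 529 in the other 4.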

How the results depend on the processing

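No called log2 difference of a member changed sign under any alternative. Uncalled ones did so 37, 22, 33 and 28 times for the diet, Cx3cr1pos HFD against HFD KC, ATM HFD against HFD KC and ATM HFD against Cx3cr1pos HFD, and lay within 0.248 of 0 after the change. With the diet no member was called under any of the 15 alternatives. For Cx3cr1pos HFD against HFD KC, 10 members were called, 3 with only HFD libraries named hf, 2 with HFD KC labelled frac_neg, and 6 to 11 with 1 library left out. Of all genes, 431 of 14571 were higher and 574 lower with libraries named hf. With HFD KC labelled frac_neg 508 of 15996 were higher and 1016 lower. For ATM HFD against HFD KC the count of 21 ran from 19 to 22 with 1 library left out and from 15 to 21 otherwise, and 13 members kept their call under all 21 alternatives. For ATM HFD against Cx3cr1pos HFD the count of 11 became 7 with no filter and 4 with only HFD libraries named hf, and ran from 7 to 12 with 1 library left out, while 4 members (Hmgcs1, Sqle, Msmo1 and Hsd17b7) kept their call throughout. Of all genes, 3136 of 27136 rose and 3037 fell there with no filter. With libraries named hf 2096 of 14571 rose and 2120 fell. Fits on fewer libraries have less information by construction. The size of the differences moved by unequal amounts. With HFD KC labelled frac_neg, the log2 difference of Cx3cr1pos HFD against HFD KC was 0.25 instead of 0.44 for Hmgcs1. It was 0.67 instead of 0.97 for Sqle and 0.58 instead of 0.52 for Insig1. For Fdft1 it was 0.67 instead of 0.70, and for Nsdhl 0.39 instead of 0.45. The cause of the changed counts, with fewer libraries or with no filter, was not tested. With total counts or DESeq2 the falls in Cx3cr1pos HFD against HFD KC were 2 instead of 1, Insig2 being added. Over all genes, the diet comparison called 519, against 1156 with DESeq2 and 231 with only its own groups and 125 to 291 without 1 STD KC library. For Cx3cr1pos HFD against HFD KC it called 2037, against 1005 with only HFD libraries named hf and 1327 without Cx3cr1pos HFD hf3.

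With the library name as a replicate block the counts were 12, 21 and 13 in the 3 comparisons among HFD groups, and 7, 20 and 11 in the same 14 libraries without it, an alternative chosen after seeing the data. By the check on deviations, each Cx3cr1pos HFD library correlated best with the HFD KC library of its own name. For ATM HFD the check did not decide. Same-name correlations there were -0.0196 to 0.186 against HFD KC and 0.0465 to 0.204 against Cx3cr1pos HFD. The highest of them exceeded the 0.166 of hf2 between the liver groups, and some libraries, but not every one, correlated best with their own name. Against those 14 libraries without it, the block added Insig1 (adjusted p = 0.0192, from 0.0614) and Ggps1 (0.0265, from 0.0720) in ATM HFD against Cx3cr1pos HFD. Depth limits Idi1 above all, the member with the fewest counts.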
